A study of Cynoglossus semilaevis with 24 samples.

Results

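The cilium and flagellum genes of Chinese tongue sole (Cynoglossus semilaevis) were taken from a table of 22773 genes by words in their descriptions. A gene was a member if its description named an axonemal protein or a dynein assembly factor, a radial spoke, a tektin, an outer dense fiber, a Bardet-Biedl protein, intraflagellar transport, a sperm flagellar protein, a sperm-associated antigen or a cilia- and flagella-associated protein. This gave 91 members, 87 with an NCBI gene identifier and 4 at loci that the table lists under XLOC numbers only. They were 20 axonemal dynein chains, 5 dynein assembly factors, 12 radial spoke proteins, 16 intraflagellar transport proteins, 7 Bardet-Biedl proteins, 4 tektins, 7 outer dense fiber proteins, 10 sperm-associated antigens, 2 sperm flagellar proteins and 8 cilia- and flagella-associated proteins. RNA was sequenced from 4 organs (brain, pituitary, liver and gonad) of genetic females and genetic males aged 2 years, which makes 8 groups of 3 libraries. RNA of 5 fish was pooled for every library, which hides the spread among individuals, and the labels name no strain or treatment and do not say whether pools of different organs came from the same fish. Female gonad is called ovary and male gonad testis below.

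Motile cilia and sperm tails share one machine, the axoneme, a cylinder of microtubules that bends when dynein arms walk along it and that radial spokes and a central pair keep in rhythm. Intraflagellar transport proteins carry parts along the shaft of motile and of immotile cilia, and Bardet-Biedl proteins form a coat complex that moves membrane proteins in and out of them. In a fish, spermatogenesis in testis builds flagella, ependymal cells lining the brain ventricles carry motile cilia, and many other cells carry a short immotile cilium that needs transport proteins but no dynein arms.

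Library totals of estimated counts ran from 10032337 to 15409531, apart from ovary 1 at 25293744. Each organ held the highest level of its own marker list: summed levels of neuron and glia genes were 5748 to 6880 FPKM in brain and at most 476 in any other organ, pituitary hormone genes reached 98673 to 151484 in pituitary and at most 164 elsewhere, and male and shared germ cell genes reached 1770 to 2031 in testis and at most 419 elsewhere. Hepatocyte genes summed to 64691 to 80178 in liver and also to 1896 to 3415 in brain, and pancreas genes to 52394 to 125494 in liver. Ovary 2 stood apart from ovary 1 and 3 in both lists, at 2297 against 73.3 and 90.8 for hepatocyte and 3632 against 1088 and 946 for pancreas genes; without it 56 members were called higher in testis and 12 in ovary, beside 55 and 13 with it. FPKM is the fragment level of a gene scaled to its length and to the depth of the library. The oocyte list, at 21134 to 25354 in ovary, summed to 160 FPKM in male brain 1, 130 in female pituitary 3 and 178 in male pituitary 3, against 18.1 to 71.2 in the other brain and pituitary libraries. Where leaving out these 3 libraries changed the call of a sex difference named below, the result without them is given. Brain against pituitary and testis against male brain are given only with these libraries included. For genes outside the members only fits with all libraries are given. In bulk RNA, fewer cells of a type and less RNA per cell cannot be told apart.

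Testis held the highest level of most of these genes, brain and pituitary held a smaller set at lower levels, and liver held few. Of the 79 members that reached a mean of 1 FPKM in some group, 56 (70.9%) were highest in testis, beside 27.5% of all genes, and 11 (13.9%) were highest in ovary, beside 21.8% of all genes. In 51 members all 3 testis libraries lay above every library of the next group. This count was not made over all genes, so it is not read as particular to the members. Groups without overlap were common, as 86.3% of all genes tested did not overlap in FPKM between the gonads. The median member stood at 11.2 FPKM in testis, 0.393 in ovary, 1.87 in female and 1.32 in male brain. It stood at 1.68 in female and 1.92 in male pituitary, and 0.0633 in female and 0.07 in male liver. The median over all genes was 4.86 FPKM in testis, 1.47 in ovary, 5.2 in female and 4.83 in male brain. It was 3.8 in female and 3.54 in male pituitary, and 0.737 in female and 0.667 in male liver. The median member thus lay above the median gene in testis and below it in every other group. The number of members at 1 FPKM or more was 73 in testis, 37 in ovary, 55 in female brain, 53 in male brain, 55 in female pituitary, 53 in male pituitary, 10 in female liver and 11 in male liver. The other 12 members stayed under 1 FPKM in every group and were tested in no comparison, among them the dynein assembly factor 3-like gene LOC103380620, at 0 in all 24 libraries.

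**Figure D1:**
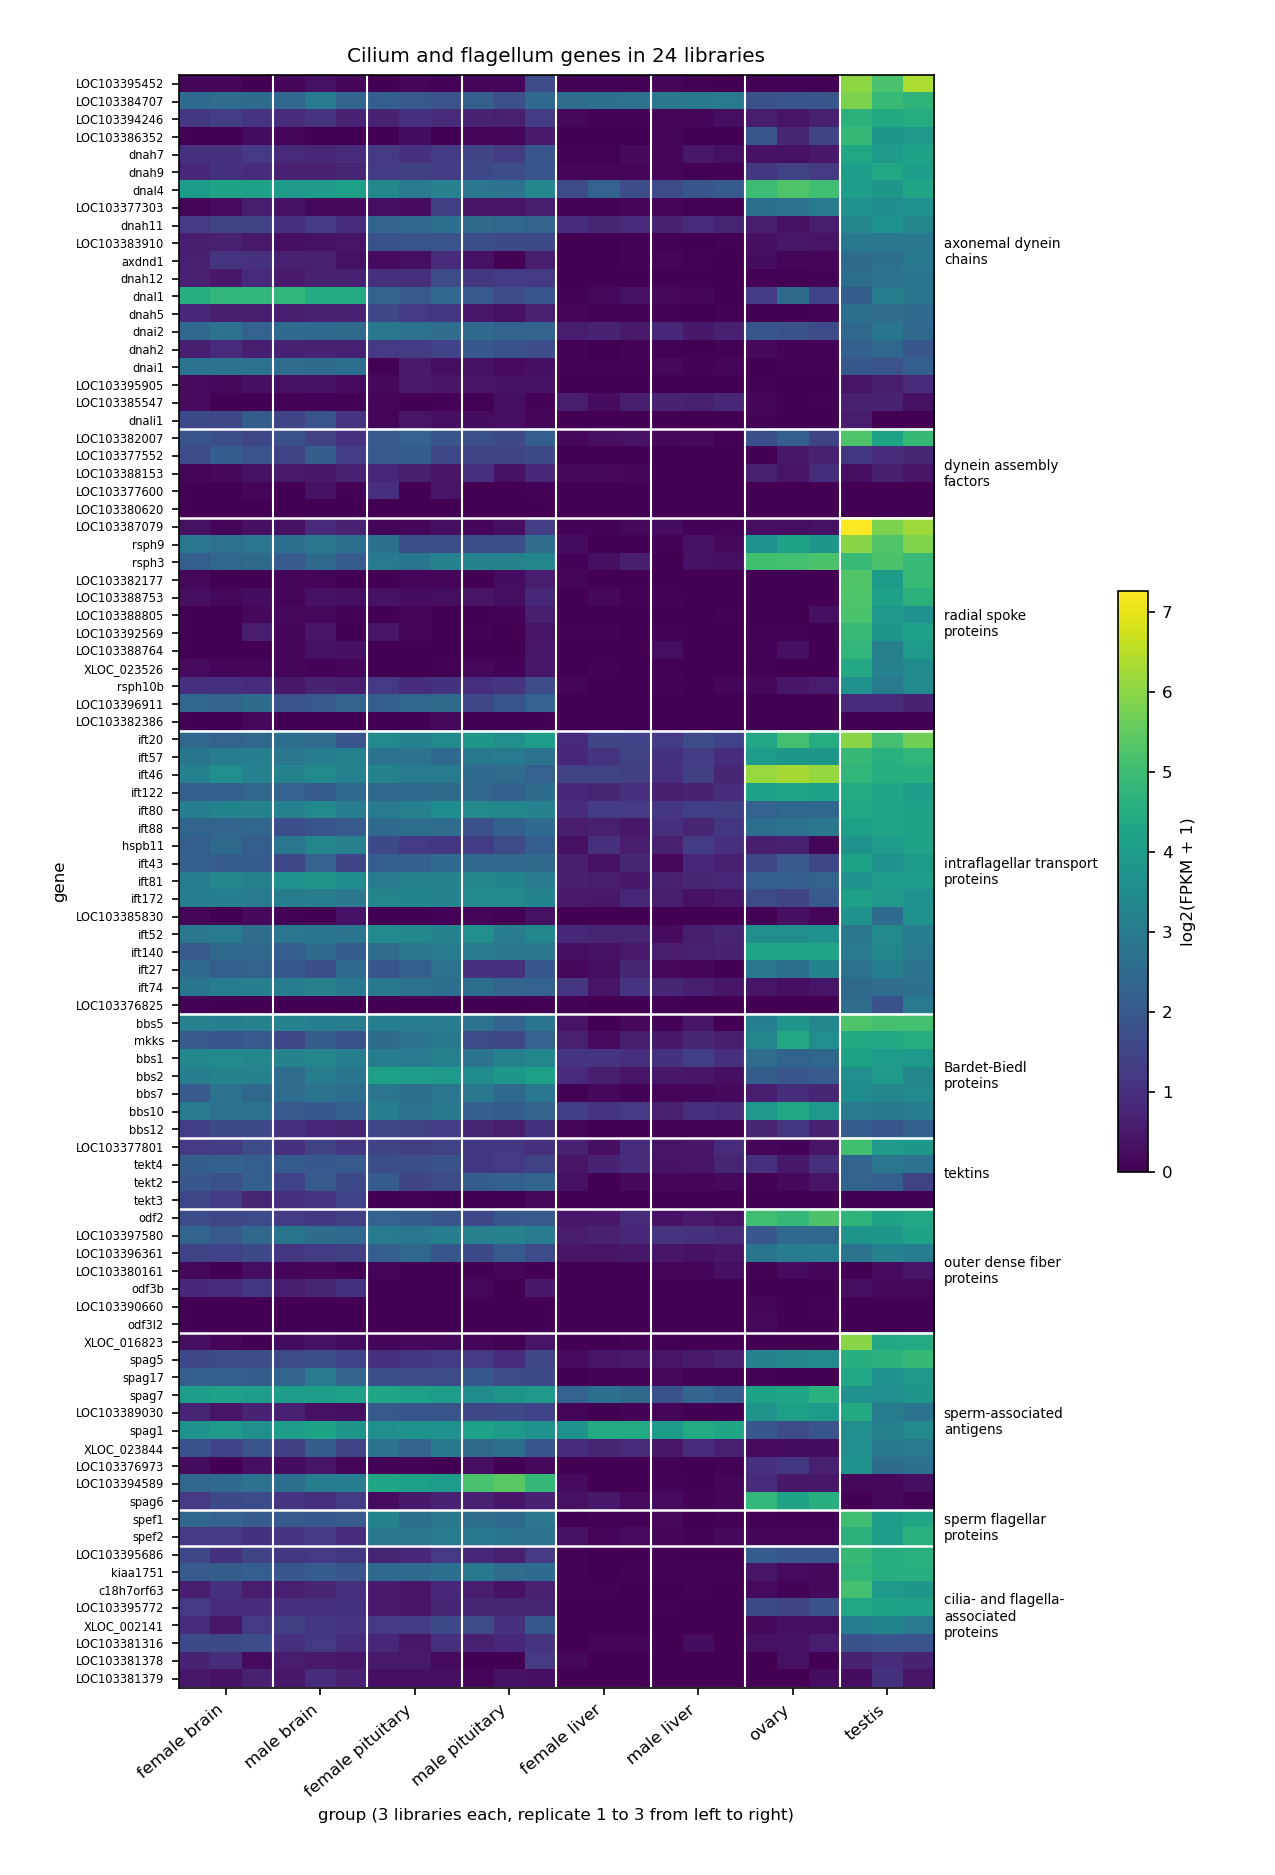
Levels of the 91 cilium and flagellum genes as log2(FPKM + 1) in each of the 24 libraries, with genes grouped by role and, within a role, ordered by their level in testis; each group of 3 columns is one organ and sex. The testis columns are bright in most rows, the liver columns are dark in most rows, and testis 1 is brighter than testis 2 and 3 in most radial spoke rows.

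Testis was set against ovary to see how the flagellum genes of a sperm-producing gonad stand beside those of an egg-producing one. Among the 74 members tested, 55 were called higher in testis, beside 45.4% of all genes, and 13 were called higher in ovary, beside 38.8% of all genes. That is 68 called in either direction, beside 84.2% of all genes, and in 68 members the FPKM values of the gonads did not overlap, beside 86.3% of all genes. A gene was called at an adjusted p under 0.05 in the quasi-likelihood test of edgeR, and only genes at 1 FPKM in 3 of the 6 libraries were tested, so a member expressed by testis alone was bound to be tested and to differ. The median log2 difference, testis minus ovary, was 2.40 over the tested members, beside 0.24 over all genes, and was 2.40 also with the 4 members without any ovary count set at their lower bound. The scaling moved these counts: without scaling beyond the count total the median of all genes was 1.04, the median of the members was 3.19, and 61 members were called higher in testis and 8 in ovary. All 6 members that were not called otherwise (mkks, ift57, dnai2, LOC103377303, ift20 and dnal1) were then called higher in testis. Of the ovary-higher genes named below, ift46 was then at -1.58, ift140 at -1.26, bbs10 at -1.14, dnal4 at -1.06 and odf2 at -0.65 on the log2 scale, each still called. The shares of 45.4% and 38.8% belong to the scaled fit and do not apply to the counts of 61 and 8.

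Testis was also set against male brain, a male organ without sperm in which many of these transcripts were present. Among 78 members tested, 62 were called higher in testis, beside 42.6% of all genes, and 10 in brain, beside 40.3% of all genes. In either direction 72 were called, beside 83% of all genes, and 74 had no overlap in FPKM, beside 85.3% of all genes. The median log2 difference, testis minus brain, was 2.51 over the members and 0.05 over all genes. Both comparisons use the same testis libraries.

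Axonemal dynein chains, the motors of the axoneme, were 17 tested genes in the gonads, with a median log2 difference of 3.80. Of these, 13 were called higher in testis, beside 45.4% of all genes, and 1 in ovary, beside 38.8%. Among the heavy chains, the force-producing subunits, dnah5 of the outer arm read 5.33, 5.02 and 4.81 FPKM in testis and 0.01, 0.01 and 0.02 in ovary. Ovary lay near 0 in every library, a 260-fold difference (log2 8.02 ± 0.27 SE, edgeR adjusted p = 9.38e-10). Another outer arm heavy chain, dnah9, read 16.0, 19.3 and 15.6 FPKM in testis against 1.27, 1.69 and 1.33 in ovary and 0.6, 0.58 and 0.72 in male brain. Testis lay above both without overlap, 6.8-fold above ovary (log2 2.76 ± 0.15, edgeR adjusted p = 2.23e-08) and 22.6-fold above brain (log2 4.50 ± 0.15, adjusted p = 1.94e-10). The light chain dnal4 went the other way, with 30.4, 37.7 and 32.1 FPKM in ovary and 15.9, 13.3 and 18.8 in testis. Its groups did not overlap, and ovary was 3.63-fold higher (log2 -1.86 ± 0.18, edgeR adjusted p = 1.71e-06).

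Light chains with one description had members with opposite profiles. Dynein light chain 1, which sits on the outer arm motor domain, is listed as dnal1 and as LOC103395452. The first read 26.5, 21.0 and 21.1 FPKM in male brain and 3.38, 7.3 and 6.09 in testis, so brain lay above testis without overlap, 4.85-fold (log2 testis minus brain -2.28 ± 0.23, edgeR adjusted p = 2.46e-06). LOC103395452 read 64.4, 35.0 and 81.7 FPKM in testis, at most 0.25 in male brain and at most 0.05 in ovary, which put testis 394-fold above brain (log2 8.62 ± 0.54, edgeR adjusted p = 1.82e-06) and 854-fold above ovary (log2 9.74 ± 0.47, adjusted p = 5.05e-08). Without male brain 2 the log2 difference from brain was 9.35. Outside testis its one value above 0.25 was 2.16 FPKM, in male pituitary 3.

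The inner arm light intermediate chain (dnali1 and genes alike to it) was split in a similar way. The gene dnali1 read 1.84, 2.73 and 1.19 FPKM in male brain and 0.46, 0 and 0 in testis, where 5 estimated counts all came from testis 1. Brain was 13.3-fold higher (log2 testis minus brain -3.74 ± 0.82, edgeR adjusted p = 0.0012). Without testis 1, which leaves no count in testis, the fitted log2 difference was -7.46. LOC103386352 read 28.4, 13 and 13.95 FPKM in testis, 2.78, 0.73 and 1.86 in ovary and had 1 count in male brain, and testis was 5.7-fold above ovary (log2 2.51 ± 0.49, edgeR adjusted p = 0.000764). LOC103384707 was present in all 8 groups, lowest in ovary at 2.67 FPKM ± 0.152 (SD, n = 3) and highest in testis at 36.7 ± 16.3, a 7.97-fold difference between the gonads (log2 3.00 ± 0.33, edgeR adjusted p = 8.12e-06). In the reference annotation Cse_v1.0 this gene overlaps snphb. Of the intermediate chains of the outer arm, dnai1 read 5.01, 4.94 and 5.21 FPKM in male brain and 2.98, 2.6 and 3.47 in testis, a 1.97-fold higher level in brain (log2 -0.98 ± 0.18, edgeR adjusted p = 0.000279), while dnai2 was called in neither comparison of testis on scaled counts and was called higher in testis than in ovary without scaling beyond the count total (log2 0.96, adjusted p = 0.00502).

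Dynein assembly factors, so named in their descriptions, gave 2 expressed genes. LOC103382007, alike to dynein assembly factor 3, reached 37.6, 17.6 and 28.4 FPKM in testis and at most 3.87 in any other library. LOC103377552, alike to the WD repeat factor DAW1, read 1.66, 3.38 and 1.51 FPKM in male brain and 1.28, 0.89 and 0.72 in testis. Its groups did not overlap and brain was 2.62-fold higher (log2 -1.39 ± 0.42, edgeR adjusted p = 0.00932), a call lost without male brain 2 (adjusted p = 0.0573).

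Radial spoke proteins, the arms that pass signals from the central pair to the dyneins, showed the largest median of the roles with over 2 tested genes. Their median log2 difference was 7.75. In testis 9 of 10 were called higher, beside 45.4% of all genes, and in ovary 1, beside 38.8%. The spoke stalk protein RSPH3 is listed 4 times. LOC103387079 had the highest group mean of all members, with 153, 56.0 and 73.0 FPKM in testis, at most 0.25 in ovary and at most 0.83 in male brain. Testis was 245-fold above ovary (log2 7.94 ± 0.58, edgeR adjusted p = 3.61e-06) and 141-fold above male brain (log2 7.14 ± 0.66, adjusted p = 4.81e-05), and without testis 1 these log2 differences were 7.35 and 6.54. LOC103388805 read 35.9, 13.5 and 11.8 FPKM in testis and at most 0.13 in male brain, a 177-fold difference (log2 7.47 ± 0.78, edgeR adjusted p = 3.84e-05) that was 6.71 on the log2 scale without testis 1. XLOC_023526 read 19.8, 8.3 and 10.45 FPKM in testis and at most 0.38 elsewhere.

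By contrast rsph3 itself was present in both gonads, with 32.1, 32.8 and 35.9 FPKM in ovary and 29.3, 35.6 and 29.1 in testis. The FPKM values overlapped, while the scaled counts were 1.87-fold higher in ovary (log2 -0.90 ± 0.14, edgeR adjusted p = 0.000116); without scaling beyond the count total the log2 difference was -0.10 and not called (adjusted p = 0.567). The spoke head showed the same kind of division among its genes. LOC103388753, alike to RSPH6A, read 37.8, 16.9 and 24.3 FPKM in testis and had no count in ovary, at least a 792-fold difference against a floor of 3 counts over the 3 ovary libraries (edgeR adjusted p = 2.99e-06). LOC103382177, alike to RSPH1, read 38.5, 14.7 and 29.5 FPKM in testis with no count in ovary, at least 436-fold higher (edgeR adjusted p = 7.22e-06), and had 2 counts in male brain. LOC103396911 is also described as RSPH6A-like but has the symbol rsph4a in the reference. It read 2.61, 3.08 and 3.94 FPKM in male brain, 0.84, 0.85 and 0.64 in testis and 0 in ovary and liver. Brain lay above testis 4.83-fold (log2 testis minus brain -2.27 ± 0.32, edgeR adjusted p = 3.3e-05). The head protein rsph9 read 61.7, 38.0 and 58.1 FPKM in testis and 12.3, 17.2 and 13.3 in ovary, 2.14-fold higher in testis (log2 1.10 ± 0.22, edgeR adjusted p = 0.000712).

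Intraflagellar transport proteins differed less between the gonads, with a median log2 difference of 0.99. All 16 were tested. Of these, 9 were called higher in testis, beside 45.4% of all genes, 5 in ovary, beside 38.8%, and 2 in neither. The most abundant in ovary was ift46, a subunit of the anterograde complex B, with 69.0, 77.3 and 68.6 FPKM there and 26.5, 22.2 and 22.8 in testis. Ovary lay above testis without overlap, 5.18-fold (log2 -2.37 ± 0.15, edgeR adjusted p = 5.92e-08), but ift46 overlaps LOC103389297 in the reference. For ift140, a scaffold of the retrograde complex A, ovary read 18.4, 18.7 and 18.1 FPKM and testis 7.12, 8.83 and 7.1, a 4.18-fold difference (log2 -2.06 ± 0.14, edgeR adjusted p = 1.03e-07). A second gene with the ift140 description, LOC103385830, was reversed, at 12.1, 4.77 and 11.6 FPKM in testis and 0.02, 0.24 and 0.07 in ovary, 58.3-fold (log2 5.87 ± 0.66, edgeR adjusted p = 1.55e-05; 5.14 without ovary 1 and 6.91 without ovary 2). The complex B scaffold ift88 read 16.5, 18.8 and 17.5 FPKM in testis and 5.12, 5.57 and 6.44 in ovary, 1.78-fold (log2 0.84 ± 0.15, edgeR adjusted p = 0.000294).

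Its testis-limited namesake, LOC103376825, read 5.04, 2.54 and 6.83 FPKM in testis and at most 0.05 in any other library. With no count in ovary or male brain, testis was at least 169-fold above the one (edgeR adjusted p = 1.26e-05) and at least 123-fold above the other (adjusted p = 1.06e-05). The complex A gene ift122, with 17.3 ± 1.08 FPKM in ovary and 18.5 ± 2.61 in testis (SD, n = 3), was called higher in ovary on scaled counts (log2 -0.70 ± 0.15, edgeR adjusted p = 0.00118), but the direction turned without scaling beyond the count total (log2 0.10, adjusted p = 0.559). The most abundant transport gene in testis was ift20, which links transport to the Golgi, at 62.4, 34.0 and 50.5 FPKM; it was 19.5, 33.1 and 21.7 in ovary and was not called on scaled counts, but was called higher in testis without scaling beyond the count total (log2 0.99, edgeR adjusted p = 0.00385).

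Bardet-Biedl proteins were present outside liver, where 5 to 7 of them reached 1 FPKM in each group of brain, pituitary and gonad. In liver only 2 did so in females and 1 in males. All 7 were tested in the gonads, with a median log2 difference of 1.02. Of these, 5 were called higher in testis, beside 45.4% of all genes, and 1 in ovary, beside 38.8%. The coat subunit bbs5 read 37.8, 34.1 and 33.1 FPKM in testis and 7.78, 12.9 and 8.91 in ovary, 2.06-fold (log2 1.04 ± 0.21, edgeR adjusted p = 0.000614). The gene bbs10, a chaperonin-like factor that helps to assemble the coat, read 13.7, 18.95 and 13.7 FPKM in ovary and 6.84, 6.6 and 7.51 in testis, 3.84-fold higher in ovary (log2 -1.94 ± 0.18, edgeR adjusted p = 1.47e-06).

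**Figure D2:**
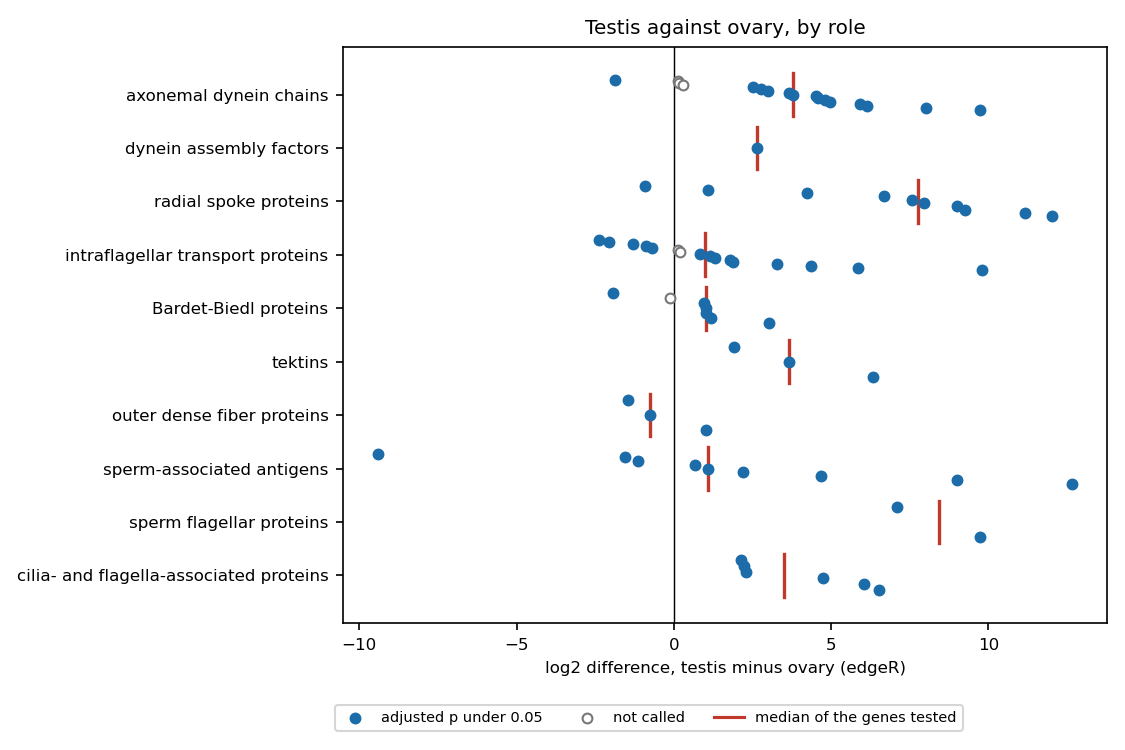
Log2 difference, testis minus ovary, from the edgeR fit for the 74 tested genes, one point per gene in rows by role; filled points were called and the red bar is the median of each row. Radial spoke and sperm flagellar proteins have medians of 7.75 and 8.43, intraflagellar transport proteins straddle 0 with a median of 0.99, and the point at -9.41 is spag6.

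Tektins, filaments in the wall of the microtubule doublets, were split between testis and brain. LOC103377801, alike to tektin-1, read 32.2, 13.99 and 13.2 FPKM in testis and 0.08, 0.06 and 0.3 in ovary, 81.6-fold (log2 6.35 ± 0.61, edgeR adjusted p = 5.17e-06; 7.21 without ovary 3 and 5.75 without testis 1). In contrast tekt3 read 1.93, 1.47 and 0.69 FPKM in female brain and 1.02, 1.16 and 1.77 in male brain, with no count in testis, ovary or liver. Brain was at least 24.2-fold above testis (edgeR adjusted p = 3.01e-05).

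Outer dense fiber proteins gave 3 tested genes, all of them odf2 or alike to it. In the gonads 1 was called higher in testis, beside 45.4% of all genes, and 2 in ovary, beside 38.8%. The testis-higher gene was LOC103397580, at log2 0.88 with median-ratio scaling (edgeR adjusted p = 0.00239). Without scaling beyond the count total it was at 1.83 (edgeR adjusted p = 1.11e-05). ODF2 lies in the dense fibers of mammalian sperm tails and also in centriole appendages of other cells. The gene odf2 read 32.0, 27.9 and 37.0 FPKM in ovary and 25.6, 17.3 and 19.1 in testis, 2.71-fold higher in ovary (log2 -1.44 ± 0.19, edgeR adjusted p = 2.43e-05). For LOC103396361 the values were 6.99 ± 0.8 FPKM in ovary and 7.17 ± 1.19 in testis (SD, n = 3), called higher in ovary on scaled counts (log2 -0.77 ± 0.17, edgeR adjusted p = 0.00128) and turned in direction without scaling beyond the count total (log2 0.04, adjusted p = 0.857). The other 4 outer dense fiber genes, odf3b and odf3l2 among them, stayed under 1 FPKM in every group.

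Sperm-associated antigens are a family in name only, and their profiles ranged widest. SPAG6, a protein of the central pair, is listed 3 times. The gene spag6 read 27.2, 17.6 and 23.1 FPKM in ovary, 0.98 to 2.19 in brain and 0, 0.12 and 0.04 in testis. Ovary was 681-fold above testis (log2 -9.41 ± 0.43, edgeR adjusted p = 8.4e-09; -10.58 without testis 2), the largest difference toward ovary among the members tested. In the reference this gene overlaps pip4k2aa and LOC103376887, and the sources used here do not say whether reads were counted by strand, so part of its reads may belong to a neighbour. XLOC_016823 had the opposite profile, at 61.2, 20.01 and 20.6 FPKM in testis with no count in ovary and at most 0.3 FPKM in any somatic library, at least 1230-fold (edgeR adjusted p = 0.00626). That bound leans on testis 1: the fitted log2 difference, itself no bound, was 12.67 with and 11.84 without this library. XLOC_023844 was present in all organs, from 0.18 ± 0.01 FPKM in ovary to 8.1 ± 2.35 in testis (SD, n = 3), 25.9-fold (log2 4.69 ± 0.28, edgeR adjusted p = 3.97e-08).

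Another central pair protein, spag17, read 19.3, 11.9 and 14.3 FPKM in testis and at most 0.02 in ovary, 514-fold (log2 9.01 ± 0.36, edgeR adjusted p = 2.43e-09). SPAG1, which assembles dynein arms, is listed as spag1 and as the SPAG1A-like gene LOC103394589. The first was the most abundant member in liver, at 12.2, 20.8 and 20.6 FPKM in females and 14.4, 20.5 and 18.7 in males; it read 15.4, 17.4 and 12.49 in male brain and 10.98, 8.14 and 9.92 in testis, 1.82-fold higher in brain (log2 -0.87 ± 0.17, edgeR adjusted p = 0.000485). LOC103394589 was highest in pituitary and read 5.16, 7.51 and 7.49 FPKM in male brain against 0.12, 0.12 and 0.24 in testis, 48.2-fold higher in brain (log2 -5.59 ± 0.39, edgeR adjusted p = 8.69e-08). Of the others, spag5, a mitotic spindle protein, was 1.58-fold higher in testis than in ovary (log2 0.66 ± 0.13, edgeR adjusted p = 0.000716). The spag8-like gene LOC103389030 read 12.8, 16.4 and 14.4 FPKM in ovary and 20.2, 7.25 and 5.99 in testis, where testis 1 alone lay above ovary. It was called higher in ovary (log2 -1.15 ± 0.44, edgeR adjusted p = 0.0355), at -1.96 without testis 1, and lost the call without any one of the other 5 gonad libraries (adjusted p = 0.0555 to 0.118). It also lost the call without scaling beyond the count total (log2 -0.38, adjusted p = 0.411), with limma (0.213 and 0.207) and with the filter at 5 FPKM (0.0741).

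Both sperm flagellar proteins were called higher in testis than in ovary. The central pair protein spef1 read 31.5, 15.7 and 18.2 FPKM there, 1 count in all of ovary and 3.15 ± 0.11 FPKM in male brain (SD, n = 3; edgeR adjusted p for testis against ovary = 8.28e-08). For spef2, needed for sperm tails in mammals, testis read 24.2, 15.6 and 23.5 FPKM and ovary 0.09, 0.08 and 0.09, a 137-fold difference (log2 7.10 ± 0.28, edgeR adjusted p = 2.04e-09). All 6 tested cilia- and flagella-associated proteins were called higher in testis than in ovary, beside 45.4% of all genes. Their median log2 difference was 3.51. The central pair protein CFAP74, listed as kiaa1751, read 26.4, 22.5 and 23.0 FPKM in testis and 0.32, 0.17 and 0.12 in ovary, 66.9-fold (log2 6.06 ± 0.29, edgeR adjusted p = 9.29e-09). The 2 CFAP54 genes, LOC103395686 and LOC103395772, stood at 24.6 ± 2.98 and 18.0 ± 1.38 FPKM in testis and at 3.02 ± 0.238 and 2.12 ± 0.337 in ovary (SD, n = 3).

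**Figure D3:**
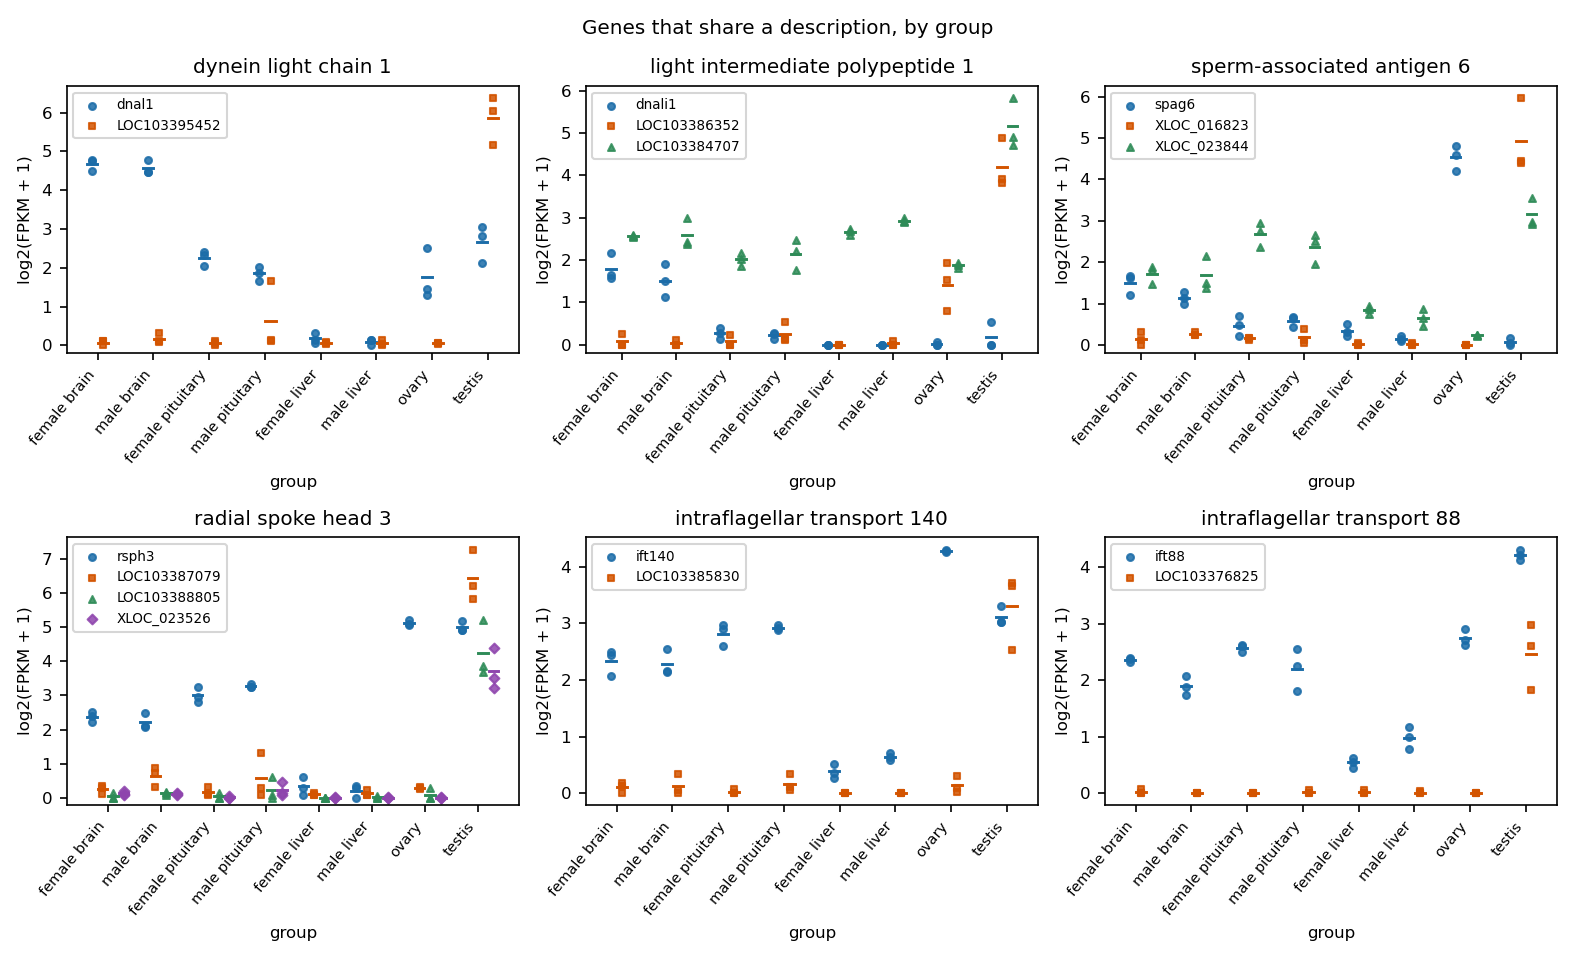
Levels as log2(FPKM + 1) of genes that share a description, by organ and sex; points are libraries and bars are means. Among the genes shown, LOC103395452 (60.3 FPKM), XLOC_016823 (33.9) and LOC103387079 (93.9) stand high in testis and have means under 1 FPKM in every other group. The same holds for LOC103388805 and XLOC_023526, which share a description with LOC103387079. Other genes with a testis-higher namesake are present in brain or ovary, such as dnal1 (24.8 FPKM in female brain), spag6 (22.6 in ovary) and ift140 (18.4 in ovary). Not every shared description is shown. The CFAP74 genes and the CFAP54 genes, left out here, were all called higher in testis than in ovary.

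Across the 8 groups, 10 members were at 10 FPKM or more in testis and under 1 FPKM in all 7 other groups. This count was not made over all genes. The 10 members were 7 radial spoke genes, the dynein light chain LOC103395452, the SPAG6 gene XLOC_016823 and the CFAP69 gene c18h7orf63. The members were picked by these same levels, so a high sum in testis and a low one elsewhere were set in advance. Their summed level was 499, 199 and 295 FPKM in testis 1, 2 and 3. In male pituitary 3 it was 7.43 FPKM, or 2.24% of the testis mean, and it was at most 3.16 FPKM in any other library of brain, pituitary, liver or ovary. How genes with near-identical copies shared reads in the authors' counting is not given in the sources used here, and 36 members overlap another annotated gene in the reference, so levels of single copies are uncertain to that extent.

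The testis libraries did not vary alike for all parts of the axoneme. Testis 1 was over 1.5 times the mean of testis 2 and 3 in 18 of 73 members at 1 FPKM in each testis library (24.7%), beside 3.61% of all genes. Radial spoke genes made up 7 of these, out of 10, with a median ratio of 1.89. The 9 heavy chains measured there had a median ratio of 1.03 and none over 1.5, and none of the 16 intraflagellar transport genes or the 7 Bardet-Biedl genes was over 1.5. The highest ratios were 3.06 in LOC103389030, 3.01 in XLOC_016823 and 2.84 in LOC103388805, and the lowest was 0.505 in dnal1. Among 44 male and shared germ cell genes the median ratio was 0.967 and 3 were over 1.5, while among 63 other cilium genes 12 (19%) were over 1.5. Its part in the differences of testis from other organs was not tested beyond leaving out testis 1, as given above.

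Brain and pituitary, both sexes together, were compared because both hold many of these transcripts. Brain was called higher in 16 of 63 members tested, beside 38.9% of all genes, and pituitary in 32, beside 36.6% of all genes, with a median log2 difference, brain minus pituitary, of -0.33 beside 0.01 over all genes. In either direction 48 were called, beside 75.6% of all genes, and 28 had no overlap between the organs, beside 50.8% of all genes. Without scaling beyond the count total the counts were 19 and 25, to which the shares of all genes above do not apply. The dynein chains went in both directions: 5 of 14 were called higher in brain and 7 in pituitary. The outer arm intermediate chain dnai1 read 5.78, 5.76 and 5.5 FPKM in female and 5.01, 4.94 and 5.21 in male brain, against 0.02 to 0.45 in the 6 pituitary libraries, a 20.8-fold difference (log2 4.38 ± 0.26, edgeR adjusted p = 4.27e-10). Also higher in brain were dnali1, 9.65-fold (log2 3.27 ± 0.41, edgeR adjusted p = 1.95e-06), and dnal1, 6.54-fold (log2 2.71 ± 0.12, adjusted p = 6.16e-12). The light and intermediate chains named here lay above pituitary in every brain library.

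Heavy chains went the other way, a division noticed after the values were seen. Of the 8 tested, 7 were called higher in pituitary, beside 36.6% of all genes. Of the 6 light and intermediate chains, 5 were called higher in brain, beside 38.9% of all genes. Without scaling beyond the count total the call of dnah5 was lost. With median-ratio scaling the call of LOC103384707 was lost, and dnai2 was called. LOC103383910, alike to the inner arm chain DNAH6, read 2.55, 2.73 and 2.68 FPKM in female and 2.34, 2.01 and 2.12 in male pituitary against 0.22 to 0.56 in brain, 7.43-fold (log2 -2.89 ± 0.11, edgeR adjusted p = 5.07e-13). The outer arm chain dnah11 read 4.09 to 5.26 FPKM in pituitary and 0.95 to 1.68 in brain, 3.93-fold (log2 -1.97 ± 0.10, edgeR adjusted p = 2.15e-11). For the inner arm chain dnah2 the difference was 3.71-fold (log2 -1.89 ± 0.13, adjusted p = 1.51e-09). Central pair and sperm tail genes were divided too. The gene spef2 read 5.81 to 6.86 FPKM in pituitary and 0.84 to 1.35 in brain, 6.24-fold (log2 -2.64 ± 0.11, edgeR adjusted p = 1.29e-12), while spag6 read 0.98 to 2.19 in brain and 0.17 to 0.61 in pituitary, 2.92-fold (log2 1.55 ± 0.30, adjusted p = 0.000176), and spag17 was 1.58-fold higher in brain (log2 0.66 ± 0.13, adjusted p = 0.000323).

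Tektin-3 was close to absent from pituitary, where tekt3 had 3 counts in 6 libraries, and stood at 1.36 ± 0.627 FPKM in female and 1.32 ± 0.399 in male brain (SD, n = 3; edgeR adjusted p = 1.59e-06). The SPAG1A-like gene LOC103394589 was 4.78-fold higher in pituitary (log2 -2.26 ± 0.14, edgeR adjusted p = 2.59e-10), and the spag8-like gene LOC103389030, at 1.78 to 3.16 FPKM in pituitary and 0.22 to 0.67 in brain, was 5.96-fold higher there (log2 -2.58 ± 0.30, adjusted p = 8.76e-07). Among transport genes ift20 was 2.96-fold higher in pituitary (log2 -1.57 ± 0.15, edgeR adjusted p = 6.61e-08) and hspb11, the complex B subunit IFT25, 2.52-fold higher in brain (log2 1.34 ± 0.24, adjusted p = 9.27e-05). The coat subunit bbs2 was 2.3-fold higher in pituitary (log2 -1.20 ± 0.10, adjusted p = 2.31e-08). None of these groups overlapped between the organs.

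**Figure D4:**
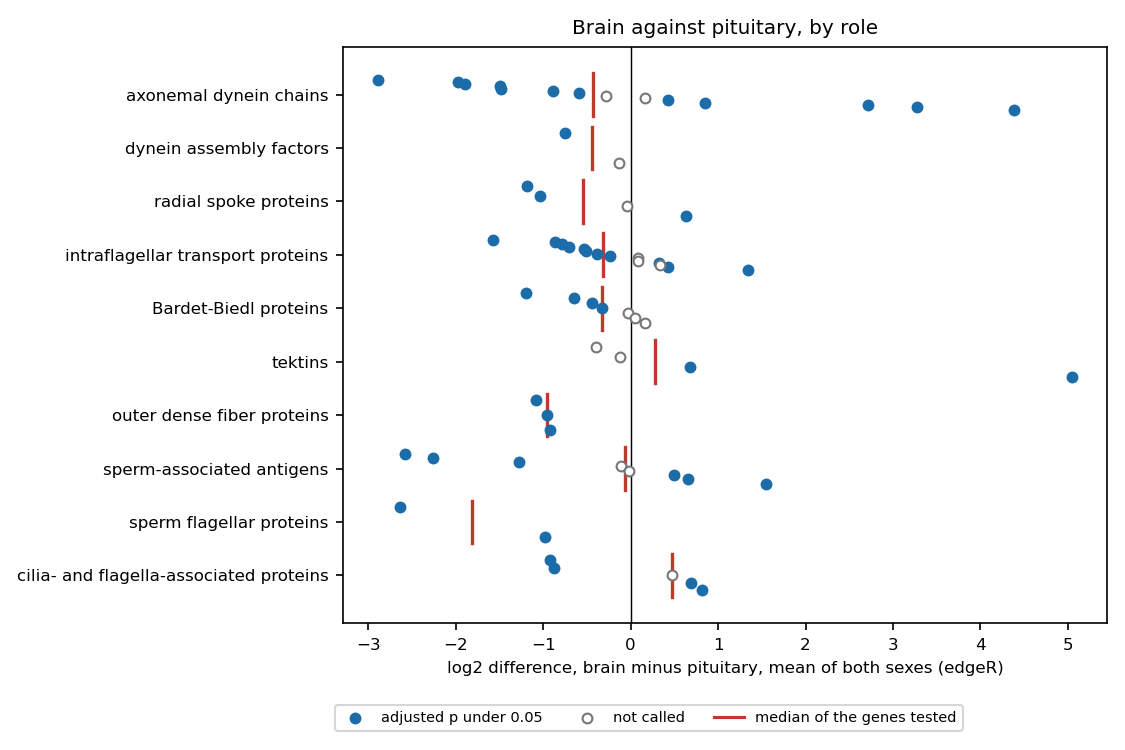
Log2 difference, brain minus pituitary over both sexes, from the edgeR fit for the 63 tested genes in rows by role; filled points were called and the red bar is the median of each row. Dynein chains reach from -2.89 (LOC103383910) to 4.38 (dnai1), and the point farthest to the right is tekt3, which had 3 counts in pituitary.

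Few members differed between the sexes in brain: 5 of 56 tested were called higher in females, beside 9.36% of all genes, and 2 in males, beside 10.9% of all genes, which makes 7 in either direction, beside 20.3%. The sexes did not overlap in 17 members, beside 37.6% of all genes. The chaperonin-like gene bbs10 read 7.13, 5.59 and 5.73 FPKM in female and 3.08, 2.97 and 3.65 in male brain. All female libraries lay above all male ones (log2 female minus male 0.88 ± 0.17, edgeR adjusted p = 0.00234). Its relative bbs12 read 1.52, 2.08 and 2.04 FPKM in females and 1.06, 0.79 and 0.7 in males, again without overlap (log2 1.09 ± 0.28, edgeR adjusted p = 0.0142), but lost the call without female brain 2 (adjusted p = 0.058). The other 3 female-higher calls were smaller or less firm. LOC103381316, a CFAP61 gene, read 2.09, 2.02 and 2.3 FPKM in females and 1.04, 1.37 and 0.92 in males (log2 0.91 ± 0.30, edgeR adjusted p = 0.0453), ift88 read 4.02, 4.15 and 4.22 against 2.33, 2.69 and 3.2 (log2 0.53 ± 0.17, adjusted p = 0.0339), and dnah11 read 1.3, 1.67 and 1.68 against 1.02, 1.34 and 0.95 (log2 0.45 ± 0.14, adjusted p = 0.0385), with groups that overlapped.

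These 3 calls lay near the threshold and were lost on leaving out any 1 of several libraries. The log2 difference then ran from 0.8 to 1.06 for LOC103381316, 0.43 to 0.67 for ift88 and 0.37 to 0.59 for dnah11. Without male brain 1, the library with the high oocyte list, the adjusted p was 0.112 for LOC103381316, 0.124 for ift88 and 0.119 for dnah11. LOC103381316 was also lost without female brain 1, 2 or 3 or male brain 3 (0.0854 to 0.12), ift88 without female brain 1, 2 or 3 or male brain 2 (0.0716 to 0.0918), and dnah11 without female brain 2 or 3 or male brain 3 (0.121 to 0.138). With other methods LOC103381316 was lost with DESeq2 (0.109) and with no filter (0.0666), ift88 with DESeq2 (0.0523), and dnah11 with limma (0.241 and 0.242). The number of female-higher members was 3, 1 and 2 without female brain 1, 2 and 3, and 2, 6 and 3 without male brain 1, 2 and 3. The number of male-higher members was 4 without male brain 1 or 3, where 2 was the count with all libraries. Among those without male brain 1 was the SPAG1A-like gene LOC103394589 (log2 -0.64, edgeR adjusted p = 0.0462). With all libraries it stood at -0.48 and was not called (edgeR adjusted p = 0.103).

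Both male-higher members in brain were transport genes on the Z chromosome, of which males of this species carry a pair and females a single copy. The complex B gene hspb11 read 3.57, 4.65 and 3.58 FPKM in females and 6.25, 8.98 and 8.02 in males (log2 -1.02 ± 0.23, edgeR adjusted p = 0.00645), and ift81, another complex B subunit, read 7.36, 9.22 and 8.17 against 11.6, 12.7 and 10.6 (log2 -0.54 ± 0.11, adjusted p = 0.0035). Male libraries lay above female ones in both. On Z, 59.9% of 696 tested genes were called higher in male brain, with a median log2 difference of -0.54, beside 8.92% of autosomal genes. The odf2-like gene LOC103397580, also on Z, read 4.09, 3.04 and 4.28 FPKM in female and 6.08, 4.97 and 4.58 in male brain and was not called (log2 -0.50 ± 0.17, edgeR adjusted p = 0.0571). The fourth Z-linked member was spef2, which was tested in brain and called in neither direction.

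In pituitary, 6 of 55 tested members were called higher in females, beside 12.2% of all genes, and 4 in males, beside 14.4% of all genes, which makes 10 in either direction, beside 26.6%. The sexes did not overlap in 20 members, beside 44.2% of all genes. The largest difference was in the outer arm heavy chain dnah5, at 1.97, 1.33 and 1.22 FPKM in females and 0.37, 0.28 and 0.58 in males. Females lay above males without overlap, 3.62-fold (log2 1.85 ± 0.27, edgeR adjusted p = 0.000891). In the reference dnah5 overlaps LOC103388214 and snx27b, so part of its reads may belong to a neighbour. All 3 chaperonin-like genes of the Bardet-Biedl family were higher in female pituitary. The gene mkks read 4.97, 5.95 and 6.62 FPKM in females and 2.17, 1.95 and 3.85 in males (log2 1.11 ± 0.26, edgeR adjusted p = 0.0103), bbs10 read 7.66, 5.6 and 6.7 against 3.49, 3.41 and 4.05 (log2 0.84 ± 0.18, adjusted p = 0.00727), and bbs12 read 1.94, 1.7 and 1.5 against 0.67, 0.47 and 1.11 (log2 1.17 ± 0.36, adjusted p = 0.0355). The groups did not overlap in any of the 3. The gene mkks overlaps memo1 in the reference. The remaining female-higher members were tekt4, at 2.4 ± 0.0721 against 1.41 ± 0.201 FPKM (SD, n = 3; log2 0.74 ± 0.23, edgeR adjusted p = 0.0359), and ift46, at 7.31 ± 0.953 against 4.59 ± 0.624 FPKM (log2 0.64 ± 0.21, adjusted p = 0.0423).

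Males were higher in LOC103394589, in the dynein heavy chains dnah2 and dnah9 and in ift20. LOC103394589 read 18.2, 16.6 and 15.0 FPKM in female and 35.4, 41.5 and 27.4 in male pituitary, 2.14-fold without overlap (log2 -1.10 ± 0.17, edgeR adjusted p = 0.00101). This gene overlaps LOC103394590 and LOC103394588 in the reference. The heavy chain dnah2 read 1.36, 1.44 and 1.78 FPKM in females and 2.98, 2.54 and 2.28 in males (log2 -0.80 ± 0.16, edgeR adjusted p = 0.00434), and dnah9 read 1.38, 1.57 and 1.47 against 1.99, 2.29 and 2.8 (log2 -0.70 ± 0.15, adjusted p = 0.00554). The transport gene ift20 read 9.98, 8.15 and 9.81 FPKM against 13.2, 11 and 15.9 (log2 -0.55 ± 0.17, edgeR adjusted p = 0.0361). In all 4 the male libraries lay above the female ones.

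The calls of bbs12, tekt4, ift46 and ift20 lay near the threshold and were lost on leaving out any 1 of several pituitary libraries. The log2 difference then ran from 0.94 to 1.53 for bbs12 and 0.68 to 0.85 for tekt4. It ran from 0.52 to 0.72 for ift46 and -0.65 to -0.42 for ift20. Without female pituitary 1, 2 or 3 or male pituitary 1 or 2 the adjusted p was 0.0592 to 0.105 for bbs12 and 0.0782 to 0.0992 for tekt4. It was 0.0581 to 0.149 for ift46 without any one of the 6 libraries, and 0.0659 to 0.132 for ift20 without any but male pituitary 2. Without both libraries with a high oocyte list the adjusted p was 0.0701 for tekt4, 0.117 for ift46 and 0.143 for ift20. With other methods dnah9 was lost with limma on either scale (0.0779 and 0.0839), dnah2 with limma on log2(FPKM + 0.1) (0.0515), ift46 with DESeq2 (0.0512) and ift20 without scaling beyond the count total (0.051). The number of female-higher members was 3 without female pituitary 1, 2 or 3 or male pituitary 1 or 2, and 8 without male pituitary 3.

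**Figure D5:**
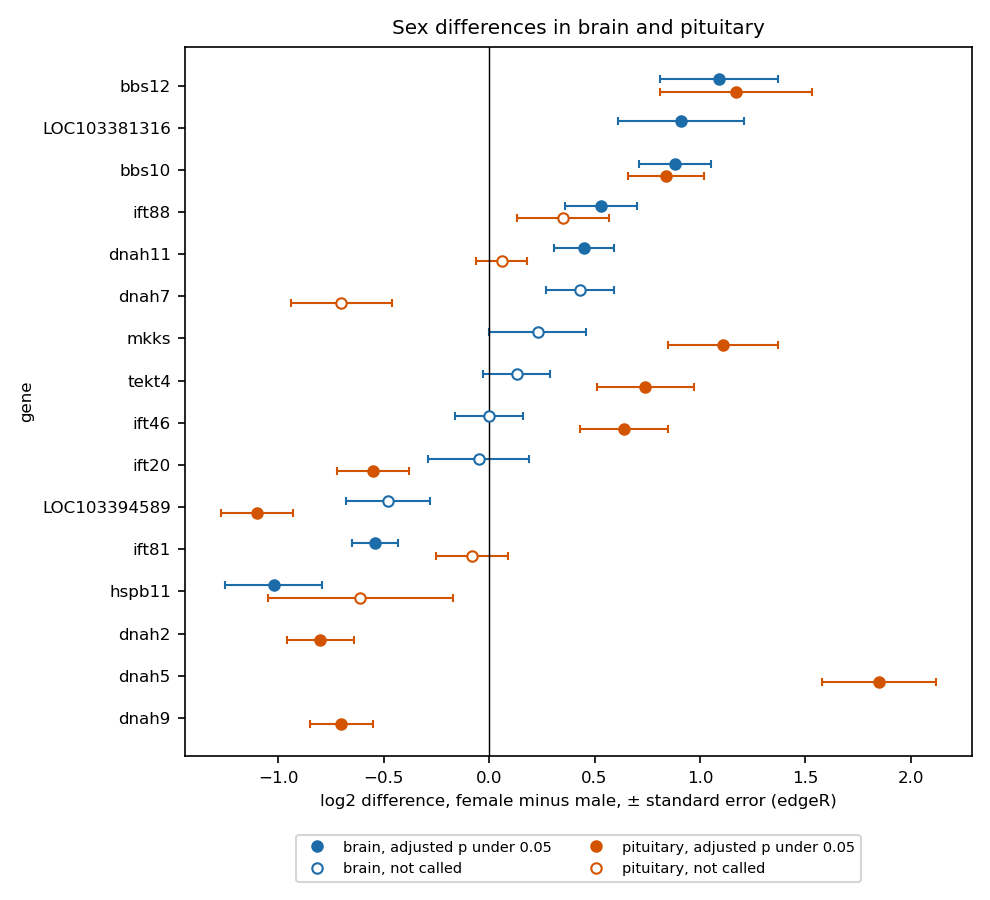
Log2 difference, female minus male, with its standard error from the edgeR fits, in brain (blue) and pituitary (orange) for the members called in either organ, and dnah7; filled points were called, and a missing point was not tested in that organ. The genes bbs10 and bbs12 lie to the right of 0 in both organs, hspb11 and ift81 were called lower in female brain, and dnah5 stands at 1.85 in pituitary.

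Whether the sex difference itself differed between brain and pituitary was tested in one fit of the 12 libraries. Of 63 members tested, 3 were called with a larger female-minus-male difference in brain, beside 4.39% of all genes, and 1 with a larger one in pituitary, beside 3.33% of all genes; in either direction 4 were called, beside 7.72%. All 4 were dynein heavy chains. For dnah5 the brain difference was 1.89 lower on the log2 scale than that of pituitary (-1.89 ± 0.35, edgeR adjusted p = 0.00448), with 0.593 ± 0.127 FPKM in female and 0.593 ± 0.0635 in male brain (SD, n = 3). For dnah9 it was 1.17 ± 0.22 higher (edgeR adjusted p = 0.00479), with 0.74, 1.06 and 0.89 FPKM in female and 0.6, 0.58 and 0.72 in male brain. The inner arm chain dnah7, at 1.07, 1.04 and 1.32 FPKM in female and 0.85, 0.75 and 0.88 in male brain and at 1.3, 1.03 and 1.44 in female and 1.8, 1.39 and 2.83 in male pituitary, gave 1.13 ± 0.29 (edgeR adjusted p = 0.0286), although neither organ was called alone (adjusted p = 0.0675 in brain and 0.0542 in pituitary, and 0.0164 in pituitary without male pituitary 2). It was called in pituitary with DESeq2 (adjusted p = 0.0251) and in brain without scaling beyond the count total (0.0448).

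The third heavy chain of this direction, dnah2, gave 0.91 ± 0.26 (edgeR adjusted p = 0.0466) and was lost without any one of 8 libraries: female brain 2, female pituitary 1 or 2, any male brain library, and male pituitary 1 or 2 (0.0698 to 0.17). The call of dnah7 was lost without any one of the female brain libraries, female pituitary 2 or male brain 1 or 2 (0.0506 to 0.0837), and without the 3 libraries with a high oocyte list (0.0536). The count of 3 fell to 1 without female brain 2, female pituitary 2, male brain 1 or male brain 2. The count of 1 rose to 2 without male pituitary 3, when mkks joined dnah5 (adjusted p = 0.0292 for mkks without male pituitary 3, 0.0332 without the 3 libraries with a high oocyte list, 0.153 with all libraries). For the sex differences that with all libraries were called in one organ only, the test between organs was not passed by hspb11 (-0.40 ± 0.48, edgeR adjusted p = 0.67), ift81 (-0.44 ± 0.21, adjusted p = 0.222) or LOC103394589 (0.63 ± 0.27, adjusted p = 0.181, and 0.0429 without male pituitary 3). With all libraries LOC103381316, ift88 and dnah11, called in brain only, did not pass it either. The same held for mkks, tekt4, ift46 and ift20, called in pituitary only.

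In liver 10 members were tested and 0 were called in either direction by edgeR, beside 1.88% of all genes higher in females and 4.94% in males (6.82% in either direction); 1 had an unadjusted p under 0.05, and DESeq2 and limma called 0. That one was LOC103384707, with 5.07, 5.38 and 5.65 FPKM in females and 6.4, 6.61 and 6.89 in males (log2 -0.41 ± 0.15, edgeR adjusted p = 0.155). The gene bbs10, at 1.53, 1.14 and 1.31 FPKM in female and 0.57, 0.97 and 0.92 in male liver, did not pass either (log2 0.60 ± 0.28, adjusted p = 0.245), though its groups did not overlap, as in 2 of the 10 members, beside 26.5% of all genes. Liver levels of the other 8 tested genes ran from 1.1 FPKM in bbs1 to 17.9 FPKM in spag1.

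A wider list of 84 other cilium genes was chosen by words in the descriptions (ciliary transcription factors, transport motors, transition zone, dynein regulatory complex and others). In the gonads 66 of them were tested. Of these, 43 were called higher in testis, beside 45.4% of all genes, and 16 in ovary, beside 38.8%. The median log2 difference was 1.48, beside 0.24 over all genes. Against male brain 42 of 67 were called higher in testis, beside 42.6% of all genes, and 15 in brain, beside 40.3%. Between brain and pituitary 22 of 58 were called higher in brain, beside 38.9% of all genes, and 25 in pituitary, beside 36.6%. In brain 5 of 51 were called higher in females, beside 9.36% of all genes, and 2 in males, beside 10.9%. In pituitary 10 of 53 were called higher in females, beside 12.2% of all genes, and 4 in males, beside 14.4%.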

How the data were processed

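RNA-seq libraries of 24 pools were deposited as one table with FPKM and estimated counts per gene, per the file headers. The submitters' processing notes name TopHat2 2.0.3.12 and Bowtie2; the quantifying tool, genome build, annotation and use of strand are not given in the sources used here. FPKM values were used as deposited for levels. The deposited estimated counts, of which 97.12 to 98.37% were whole per library, were rounded and tested with the quasi-likelihood test of edgeR 4.0.16 (R 4.3.3, TMM scaling) over all genes at 1 FPKM in 3 libraries of a comparison, with Benjamini-Hochberg adjustment and a threshold of 0.05. Levels are therefore FPKM, while differences, folds and standard errors come from scaled counts. The script was tested on simulated data.

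Brain was compared with pituitary over both sexes, sexes within brain, pituitary and liver, testis with ovary and with male brain, and the sex difference of brain with that of pituitary, which makes 7 comparisons. Alternatives were other scalings, no filter, a filter at 5 FPKM, DESeq2 1.42.0, limma 3.58.1 on log2(FPKM + 1) and log2(FPKM + 0.1), a replicate block, leaving out each library, and leaving out the 3 brain and pituitary libraries with a high oocyte list. The block within each sex was added after seeing the data. The p-values measure spread between 3 pools a group, and no pair of libraries was near-identical.

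Members and lists were chosen with earlier results of these data known. Named were the 2 members with the highest mean level in each description term, the 5 largest called differences per direction and comparison whose groups did not overlap, every called member where a direction had 5 or fewer, and the 3 highest means in ovary, liver and pituitary; other genes were named after their values were seen. Identifiers of 82 members matched the reference table Cse_v1.0, which was used for chromosomes, neighbours and overlaps only.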

Additional observations from a re-analysis of the deposited data

Results flagged for a closer look

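The sex difference of 4 dynein heavy chains differed between brain and pituitary in the edgeR test of that difference itself (female minus male in brain, less the same in pituitary, on the log2 scale). These 4 were the calls among 63 members tested, beside 7.72% of all genes, so the count is not read as particular to the members. The values were -1.89 for dnah5, 1.17 for dnah9, 1.13 for dnah7 and 0.91 for dnah2. The calls of dnah7 and dnah2 were lost when single libraries were left out, with the adjusted p-values given in the report, and those of all 3 genes other than dnah5 were lost with limma on either log2 scale.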

How the results depend on the processing

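Of 100 single results, 73 kept their direction and call in every alternative run. For the counts of called members, the cause of a change was not tested unless named. The shares of all genes given in the report belong to the main fits and do not apply to the counts under other settings. Ovary-higher members numbered 13, and 8 without scaling beyond the count total, 8 with limma on log2(FPKM + 1) and 8 on log2(FPKM + 0.1). Those settings reversed ift122 (0.10, 0.08 and 0.09) and LOC103396361 (0.04, 0.03 and 0.03). The filter at 5 FPKM, which tests fewer genes, left 1 female-higher member in brain, 3 female-higher and 2 male-higher in pituitary, 5 brain-higher against testis, 7 brain-higher and 16 pituitary-higher between those organs, and 0 and 0 in the test of the sex difference between organs. DESeq2 called 3 female-higher members in brain, limma on log2(FPKM + 0.1) called 2 male-higher members in pituitary, and either limma scale called 0 with the larger sex difference in brain. With no filter 1 member was male-higher in liver. Without the 3 libraries with a high oocyte list, 2 members were female-higher and 4 male-higher in brain, and 2 had the larger sex difference in pituitary. Leaving out each library gave 1 to 6 female-higher and 2 to 4 male-higher members in brain, 3 to 8 female-higher in pituitary, and 1 to 4 and 1 to 2 in the test between organs.

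Differences near 0 that were never called changed sign: ift20 in brain (-0.05) to 0.03 and 0.04 with limma, 0.11 without the libraries in doubt and -0.28 to 0.11 without single libraries; ift46 in brain (0.00) to 0.04 without scaling, 0.01 with the filter at 5 FPKM, 0.03 with limma and -0.14 to 0.08 without single libraries; dnah11 in pituitary (0.06) to -0.09 without the libraries in doubt and -0.03 to 0.13 without single libraries; ift81 in pituitary (-0.08) to between -0.22 and 0.02 without single libraries.

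Same-numbered female brain and pituitary libraries deviated together (correlations 0.136 to 0.214, all 3 best with their own number). Male brain and pituitary (0.036 to 0.221) did not in every pair. Testis and male brain also had all 3 best with their own number, but at 0.0562 to 0.0885, under the threshold of 0.1 set for pairing. In the other groups compared (-0.174 to 0.225) not all 3 were best with their own number. With a block within each sex, added after seeing the data, 16 members were brain-higher and 32 pituitary-higher, and 3 and 1 were called in the test between organs, the same counts as without it. With the replicate block, 4 members were male-higher in brain, and the calls of LOC103381316 in brain (adjusted p = 0.0725), tekt4 (0.0639), ift46 (0.0622) and bbs12 (0.0572) in pituitary and dnah2 between organs (0.0651) were lost, while dnah7 in pituitary was called (0.0268). Calls in members near 1 FPKM, such as bbs12 and LOC103381316, were among those lost without single libraries.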

Other observations

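Among the cilium genes outside the description terms, named here after their values were seen, regulators and motor adaptors were divided between organs as well. Of the RFX factors, which bind promoters of cilium genes, rfx4 stood at 34.5 ± 3.55 FPKM in female and 34.0 ± 3.93 in male brain and at 0.48 ± 0.285 and 0.693 ± 0.166 in pituitary (SD, n = 3), 51.3-fold higher in brain (edgeR adjusted p = 1.8e-13). In contrast rfx3 stood at 24.8 ± 4.19 and 23.5 ± 0.933 FPKM in pituitary and at 3.39 ± 0.0586 and 3.52 ± 0.632 in brain, 8-fold higher in pituitary (edgeR adjusted p = 7.53e-14). In the gonads, rfx2 was 7.3-fold and the FOXJ1-like gene LOC103393472 12.1-fold higher in testis (edgeR adjusted p = 7.76e-08 and 7.66e-07). FOXJ1 is a master regulator of motile cilia. Another FOXJ1-like gene, LOC103382068, was highest in female brain, at 3.3 ± 0.367 FPKM. It stood at 1.92 ± 0.314 in male brain, 1.65 ± 0.503 in testis and 0.373 ± 0.0416 in ovary (SD, n = 3).

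The kinesin adaptor gene kifap3 read 209, 142 and 189 FPKM in testis against 12.6 ± 0.399 in ovary (SD, n = 3), 8.32-fold (edgeR adjusted p = 3.14e-08), whereas its namesake LOC103396560 was highest in brain, at 50.9 ± 3.91 FPKM in females and 47.5 ± 0.541 in males. The GAS8-like genes, parts of the dynein regulatory complex, split by gonad: LOC103390503 read 30.0, 13.4 and 16.4 FPKM in testis with no count in ovary, at least 445-fold (edgeR adjusted p = 3.53e-06), and LOC103383392 was 3.72-fold higher in ovary (adjusted p = 1.89e-06). Cyclin O, which drives centriole amplification in multiciliated cells of mammals, was highest in ovary, where ccno read 97.3, 69.6 and 119.6 FPKM against 1.04, 1.56 and 1.14 in testis, 133-fold (edgeR adjusted p = 2.14e-09). It was also 21.1-fold higher in pituitary than in brain (edgeR adjusted p = 1.21e-10). For the genes of this section no result was taken without the brain and pituitary libraries with a high oocyte list. The part of those libraries in this difference was not tested.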
